A study of Mus musculus with 7 samples.

Results

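Genes that burn fatty acids in mitochondria were followed in the brown fat of mice injected with CB-100 and of sham-injected mice. All mice were NOD/ShiLtJ, an inbred line prone to autoimmune diabetes. The set holds 30 named genes, taken by symbol from a gene count table of 55487 genes, and all 30 passed the filter on low counts along with 16823 genes in all. They were ordered here by the step they serve, with 2 genes of activation, 6 of carnitine entry, 1 of malonyl-CoA removal, 7 acyl-CoA dehydrogenases, 5 of the later steps of the spiral, 3 auxiliary enzymes, 3 of electron transfer and 3 thioesterases.

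The CB-100 group had 4 mice and the sham group 3. CB-100 is the fraction above 100 kDa of buffer conditioned by brown adipocytes (imBAT in the labels), injected under the skin for 7 days at 1.5 mg per kg of body weight into mice whose blood glucose lay between 190 and 230 mg/dL. Sham mice were given KRBH buffer. The labels repeat the CB-100 protocol for them and give no schedule of their own. RNA was isolated from brown fat between 2 and 8 weeks later. The week, age and sex of each mouse are not given in the labels. Titles of CB-100 samples carry the code nd and those of sham samples the code d, which the labels do not explain and which cannot be told apart from the injection.

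A fatty acid is first bound to coenzyme A by an acyl-CoA synthetase, then handed to carnitine by Cpt1, carried across the inner mitochondrial membrane and returned to coenzyme A by Cpt2. Each turn of the spiral inside the matrix is a dehydrogenation by an acyl-CoA dehydrogenase, a hydration, another dehydrogenation and a thiolytic cleavage. Electrons from the acyl-CoA dehydrogenases pass to the electron transfer flavoprotein, made of Etfa and Etfb, and from there through Etfdh to ubiquinone. In brown fat this route feeds the proton gradient that the uncoupling protein Ucp1 releases as heat.

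Library totals ran from 10815101 to 28528471 counts, and Xist and Y-linked counts showed 1 male in each group. Mitochondrially encoded genes held 22.3% to 36.3% of the counts in CB-100 and 14.3% to 22.8% in sham libraries. The structural RNAs 7SL and 7SK held 9.54% to 14.4% in CB-100 and 5.89% to 8.35% in sham. Brown adipocyte markers had a summed level between 3845 and 7908 CPM (counts per 1000000 of the scaled library) in CB-100 and between 4562 and 7764 CPM in sham. The sum includes the general adipocyte genes Fabp4, Adipoq and Plin1, so it does not measure brown identity alone. In sham replicate 3, Fabp4 stood at 4135 CPM, against 46.1 CPM for Ucp1, 1.03 for Dio2 and 0.329 for Elovl3. Cidea stood at 643 CPM and Cox8b at 229 CPM in that library. None of the 10 brown markers passed the test, and the 15 skeletal muscle markers summed to 388, 545, 2826 and 541 CPM in the 4 CB-100 libraries and to 990, 2181 and 1832 CPM in the 3 sham libraries.

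In CB-100 brown fat, 4 of the 30 genes fell and 1 rose. Etfa and Etfb, both subunits of the electron transfer flavoprotein, fell to 0.39 and 0.44 of the sham level, the isomerase Eci1 to 0.42 and the thioesterase Acot13 to 0.32. Slc22a5, the carnitine importer of the plasma membrane, rose 1.70-fold. These 5 calls at an adjusted p of 0.05 in edgeR's quasi-likelihood test compare with 3.70% of all genes tested, and the 4 decreases and 1 increase with 2.28% and 1.42%. The remaining 25 genes did not pass. Estimates lay below 0 for 24 of the 30 genes, against 47.3% of all genes, and the median log2 change was -0.51 against 0.03.

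**Figure D1:**
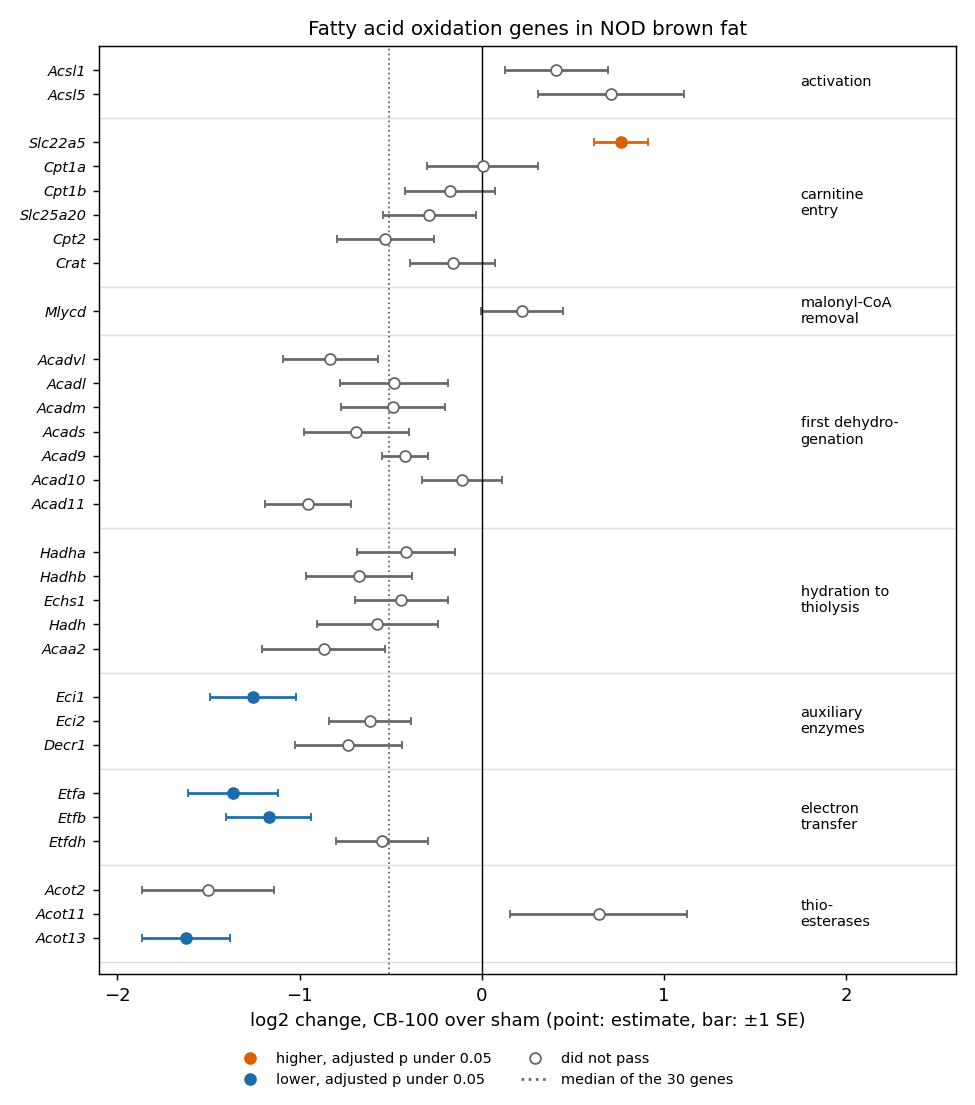
Log2 change (CB-100 over sham, horizontal axis) of each of the 30 genes in pathway order, with bars of 1 standard error; filled points passed the test. Electron transfer, auxiliary and dehydrogenase genes lie left of 0, activation genes and Slc22a5 right of it, and the dotted line is the median of -0.51.

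Leaving out single libraries changed this count. It was 0 without CB-100 replicate 2, without sham replicate 1 or without sham replicate 3. Calls over all genes then numbered 24, 14 and 8, in place of 622 with all libraries. The count was 1 without CB-100 replicate 3 or sham replicate 2 (187 and 319 over all genes). It was 2 without CB-100 replicate 1 (97 over all genes) and 5 without CB-100 replicate 4 (610 over all genes). Eci1 stayed called in 2 of these 7 fits and Etfa, Etfb and Slc22a5 in 1. At an unadjusted p of 0.05, edgeR gave 14 of the 30 genes, 13 lower and 1 higher, against 23.9% of all genes. By direction this was 12.2% of all genes lower and 11.7% higher. DESeq2 called 9 of the 30, against 11.7% of all genes, with 8 lower against 6.22% and 1 higher against 5.47%. Limma voom called 7, against 7.21%, with 6 lower against 4.33% and 1 higher against 2.88%.

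Sequences before the start sites of the called genes are shown so that they can be compared. Of the genes shown, Etfa, Etfb and Eci1 fell and Slc22a5 rose. The windows are the bases upstream of the RefSeq start on GRCm38.p6, 250 bases long except for Eci1, which was shortened to 208 bases to end before the gene annotated by GENCODE. Each reads 5′ to 3′ on the strand of the gene, and capitals mark CCAAT on either strand and the NRF1 palindrome, which is GCGC, any 2 bases and GCGC again. Acot13 has no entry in the table used.
Etfa (chr9:55512244-55512493, minus strand): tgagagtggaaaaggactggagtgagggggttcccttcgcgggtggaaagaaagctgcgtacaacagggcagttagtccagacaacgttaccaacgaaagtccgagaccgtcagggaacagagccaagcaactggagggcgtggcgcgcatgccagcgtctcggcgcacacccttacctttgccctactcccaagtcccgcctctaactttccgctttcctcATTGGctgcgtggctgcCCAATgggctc
Etfb (chr7:43443822-43444071, plus strand): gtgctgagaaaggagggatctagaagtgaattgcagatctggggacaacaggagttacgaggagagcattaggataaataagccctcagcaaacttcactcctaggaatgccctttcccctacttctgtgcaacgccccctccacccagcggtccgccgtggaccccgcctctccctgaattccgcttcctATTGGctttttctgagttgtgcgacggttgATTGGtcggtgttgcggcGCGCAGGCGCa
Eci1 (chr17:24426433-24426640, plus strand): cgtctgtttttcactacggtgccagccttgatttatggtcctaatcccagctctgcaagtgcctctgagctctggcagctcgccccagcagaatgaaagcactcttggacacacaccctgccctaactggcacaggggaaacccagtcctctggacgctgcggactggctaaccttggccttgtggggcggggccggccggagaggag
Slc22a5 (chr11:53891704-53891953, minus strand): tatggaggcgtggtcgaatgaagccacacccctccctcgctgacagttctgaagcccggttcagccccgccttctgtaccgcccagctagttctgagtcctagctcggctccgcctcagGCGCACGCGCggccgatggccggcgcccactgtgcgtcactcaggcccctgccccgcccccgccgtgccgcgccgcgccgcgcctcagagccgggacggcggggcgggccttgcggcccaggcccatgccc

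Both flavoprotein subunits had a pair of CCAAT matches close to the start. Etfb, which fell, and Slc22a5, which rose, had an NRF1 palindrome, and Eci1 had neither motif. Motifs were counted over the full 250 bases in the 24 of 30 genes with a window, Eci1 included although its last bases are not printed. Each of these genes counts 1 window, the nearest to its annotated start, while all windows can hold more than 1 per gene. The shares below are thus counted on unlike bases. CCAAT was found in 11 (45.8%, against 33.8% of all 32851 windows) and the NRF1 palindrome in 4 (16.7%, against 5.0%): Slc22a5, Acad10, Etfb and Etfdh. The nuclear receptor core motif AGGTCA was found in 4 of the 24 (16.7%, against 14.0%), namely Cpt1a, Acadvl, Acadm and Echs1. Of the longer motifs, the PPAR motif, which is AGGTCA repeated directly after any 1 base, matched 0 of the 24 windows and 11 of all windows. The ERR motif TCAAGGTCA matched 0 and 127, and the cAMP response motif TGACGTCA 0 and 508. All motifs were searched on both strands, and the PPAR and ERR motifs contain AGGTCA. A match describes letters and not a bound site.

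In electron transfer 2 of 3 genes fell, with a median log2 change of -1.17 over the step. Etfa (chromosome 9, 55454508 to 55512243, minus strand, GRCm38) encodes the alpha subunit. Its level was 291, 168, 281 and 185 CPM in CB-100 replicates 1 to 4 and 498, 657 and 633 CPM in sham replicates 1 to 3. Every CB-100 library lay below every sham library, and the log2 change was -1.36 (± 0.25 SE, adjusted p = 0.033 by edgeR). Etfb (chromosome 7, 43444083 to 43457800, plus strand) encodes the beta subunit, which holds AMP. It stood at 322, 211, 329 and 242 CPM in CB-100, against 478, 717 and 667 CPM in sham, again without overlap, and fell by 1.17 on the log2 scale (± 0.23 SE, adjusted p = 0.036 by edgeR). The Etfb count is uncertain, because Gm45233 overlaps its exons on the same strand and 4 libraries hold non-whole values.

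Etfdh, the membrane enzyme that passes these electrons to ubiquinone, did not pass. It stood at 363, 182, 266 and 252 CPM in CB-100, against 300.2, 445 and 419.7 CPM in sham (log2 change -0.55 ± 0.25 SE, adjusted p = 0.23 by edgeR). CB-100 replicate 1 lay above sham replicate 1, so the groups overlapped. Summed over the 3 genes, electron transfer stood at 773 ± 187 CPM in CB-100, against 1605 ± 289 CPM in sham. Here and below, means are given ± SD over the 4 CB-100 and the 3 sham mice.

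The auxiliary enzymes prepare the double bonds of unsaturated fatty acids for the spiral. Eci1 (chromosome 17, 24426641 to 24439348, plus strand), an enoyl-CoA isomerase, stood at 149, 76.3, 114 and 100.3 CPM in CB-100, against 213, 276 and 298 CPM in sham. The highest CB-100 library lay below the lowest sham library, and the gene fell by 1.26 on the log2 scale (± 0.24 SE, adjusted p = 0.034 by edgeR). Its paralog Eci2 averaged 60.9 ± 17.1 CPM in CB-100, against 93.1 ± 16.2 CPM in sham, with a log2 change of -0.61 (± 0.22 SE, adjusted p = 0.14 by edgeR). Decr1, the dienoyl-CoA reductase, averaged 193 ± 44.8 CPM in CB-100, against 321 ± 129 CPM in sham (log2 change -0.73, adjusted p = 0.17 by edgeR). CB-100 replicate 1 lay above sham replicate 1 in both genes, as did CB-100 replicate 3 in Decr1, and neither passed.

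**Figure D2:**
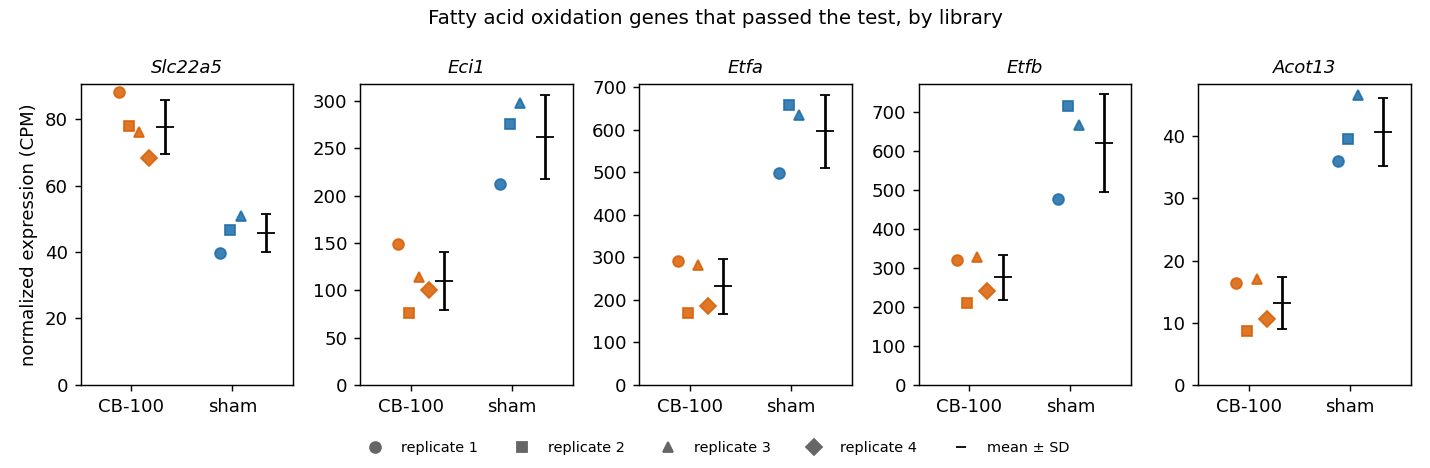
Normalized expression in CPM (vertical axes from 0) of the 5 genes that passed, by library, CB-100 left of sham; points are mice and black marks are the mean ± SD. Slc22a5 is higher and Eci1, Etfa, Etfb and Acot13 are lower in each CB-100 library than in each sham library.

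The thioesterases, which release free fatty acids from coenzyme A, counted 1 decrease among 3 genes in edgeR's test and 2 in both DESeq2 and limma voom, Acot13 and Acot2. Acot13 (chromosome 13, 24817948 to 24831540, minus strand) stood at 16.4, 8.68, 17.0 and 10.7 CPM in CB-100, against 36.0, 39.5 and 46.6 CPM in sham. The groups did not overlap, and its log2 change of -1.62 was the furthest from 0 of the 30 genes (± 0.24 SE, adjusted p = 0.022 by edgeR). Acot13 stayed called without CB-100 replicate 1, 3 or 4 or sham replicate 2, but not without CB-100 replicate 2, sham replicate 1 or sham replicate 3, where the edgeR adjusted p reached 0.11. Acot2, the thioesterase of the mitochondrial matrix, stood at 49.1, 21.8, 40.8 and 42.7 CPM in CB-100, against 54.1, 136 and 139 CPM in sham. The groups did not overlap, with CB-100 replicate 1 and sham replicate 1 next to each other, and the log2 change was -1.502 (± 0.36 SE, adjusted p = 0.057 by edgeR, 0.0018 by DESeq2 and 0.032 by limma voom). Values were non-whole in all 7 libraries, which leaves its count uncertain, and Acot1 is a closely related neighbour. Acot11, first described as a thioesterase induced in brown fat, stood at 279.6, 82.8, 193 and 339 CPM in CB-100, against 117, 224 and 89.0 CPM in sham. The lowest and the highest library were both CB-100, and the log2 change of 0.64 did not pass (± 0.49 SE, adjusted p = 0.45 by edgeR).

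Activation and carnitine entry held 4 of the 6 estimates above 0, the others being Mlycd and Acot11. Within carnitine entry 2 of 6 lay above 0, Slc22a5 and Cpt1a (0.0064), and the median log2 change of the step was -0.17. Slc22a5 (chromosome 11, 53864542 to 53891660, minus strand) stood at 88.3, 78.0, 76.2 and 68.3 CPM in CB-100, against 39.6, 46.8 and 50.7 CPM in sham. The lowest CB-100 library lay above the highest sham library, and the log2 change was 0.77 (± 0.15 SE, adjusted p = 0.035 by edgeR). Its counts were non-whole in all 7 libraries and it belongs to a gene family, so its level is uncertain. Acsl1, the main long-chain acyl-CoA synthetase of fat, stood at 1757, 1514, 1634 and 1333 CPM in CB-100, against 898, 1683 and 943 CPM in sham. Sham replicate 2 reached the level of the CB-100 libraries, while the other 2 sham libraries lay below all of them (log2 change 0.41 ± 0.28 SE, adjusted p = 0.40 by edgeR). Acsl5, another long-chain synthetase, stood at 46.5, 21.6, 28.7 and 79.6 CPM in CB-100, against 26.9, 27.6 and 26.7 CPM in sham. The sham libraries were within 1 CPM of each other, the CB-100 libraries ranged widely, and the gene did not pass (log2 change 0.71 ± 0.40 SE, adjusted p = 0.31 by edgeR).

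The carnitine shuttle itself did not pass in any gene besides Slc22a5. Cpt1b, the muscle and brown fat form of carnitine palmitoyltransferase 1, stood at 772, 436, 747 and 615 CPM in CB-100, against 611, 818 and 748 CPM in sham. The groups overlapped (log2 change -0.17 ± 0.25 SE, adjusted p = 0.70 by edgeR), and the count is uncertain because Gm44502 overlaps its exons on the same strand. Cpt1a, the form that leads in liver, stood at 16.0, 17.8, 15.3 and 34.1 CPM in CB-100, against 17.9, 26.7 and 17.9 CPM in sham (log2 change 0.0064 ± 0.30 SE, adjusted p = 0.99 by edgeR). CB-100 replicate 4 stood above all other libraries, and without it the log2 change was -0.34 (edgeR adjusted p = 0.32). Slc25a20, the carnitine-acylcarnitine carrier of the inner membrane, averaged 181 ± 52.1 CPM in CB-100, against 221 ± 49.0 CPM in sham (log2 change -0.29 ± 0.25 SE, adjusted p = 0.52 by edgeR). Cpt2, which returns the acyl group to coenzyme A, averaged 136 ± 34.5 CPM in CB-100, against 196 ± 60.3 CPM in sham (log2 change -0.53 ± 0.27 SE, adjusted p = 0.26 by edgeR). Crat, the carnitine acetyltransferase, averaged 429 ± 102 CPM in CB-100, against 479.5 ± 78.0 CPM in sham (log2 change -0.16 ± 0.23 SE). Mlycd, which degrades the Cpt1 inhibitor malonyl-CoA, averaged 54.4 ± 13.9 CPM in CB-100, against 46.7 ± 9.41 CPM in sham (log2 change 0.22 ± 0.22 SE). Neither Crat nor Mlycd passed.

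All 7 acyl-CoA dehydrogenases had estimates below 0, and 0 of the 7 passed edgeR's test (4 at an unadjusted p of 0.05). DESeq2 called 3 of them, Acadvl, Acad9 and Acad11, and limma voom 1, Acad11. Acadvl, which opens the spiral for very long chains, stood at 859, 462, 722 and 625 CPM in CB-100, against 951, 1407 and 1200.1 CPM in sham. The groups did not overlap (log2 change -0.83 ± 0.26 SE, adjusted p = 0.10 by edgeR). Acad11, a dehydrogenase that carries a kinase-like domain, stood at 237, 134, 164 and 179.7 CPM in CB-100, against 260.5, 381 and 396 CPM in sham. It also did not overlap and lay just outside the threshold (log2 change -0.95 ± 0.24 SE, adjusted p = 0.057 by edgeR). Acad9, which also serves complex I assembly, stood at 28.5, 29.96, 30.4 and 30.2 CPM in CB-100, against 35.6, 44.5 and 39.6 CPM in sham. Its CB-100 values lay within 2 CPM of each other and below all sham values (log2 change -0.42 ± 0.12 SE, adjusted p = 0.087 by edgeR). Exons of Acadvl are overlapped by Dvl2, those of Acad11 by Gm28305 and Ackr4 and those of Acad9 by Gm43079, and non-whole values occur in all 3 genes, so their counts are uncertain.

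The dehydrogenases for long, medium and short chains overlapped between the groups. Acadl averaged 640.5 ± 197 CPM in CB-100, against 896 ± 225 CPM in sham (log2 change -0.48 ± 0.30 SE). Acadm, the medium-chain enzyme, stood at 923, 509.7, 903 and 598 CPM in CB-100, against 764, 1217 and 1109 CPM in sham (log2 change -0.49 ± 0.29 SE, adjusted p = 0.32 by edgeR). CB-100 replicates 1 and 3 lay above sham replicate 1. Acads averaged 146 ± 41.6 CPM in CB-100, against 236 ± 78.9 CPM in sham (log2 change -0.69 ± 0.29 SE), and Acad10, the other dehydrogenase with a kinase-like domain, averaged 47.8 ± 12.3 CPM in CB-100, against 51.6 ± 9.76 CPM in sham (log2 change -0.11 ± 0.22 SE).

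The 5 genes of hydration, the later dehydrogenation and thiolysis had estimates from -0.87 to -0.42, and 0 of the 5 passed edgeR's test, with 2 at an unadjusted p of 0.05 and 0 in DESeq2 or limma voom. Hadhb, the thiolase subunit of the trifunctional protein, stood at 1046, 647, 951 and 695 CPM in CB-100, against 869.6, 1586 and 1542 CPM in sham (log2 change -0.68 ± 0.29 SE, adjusted p = 0.20 by edgeR). CB-100 replicates 1 and 3 lay above sham replicate 1. Hadha, the subunit with hydratase and dehydrogenase activity, lies head to head with Hadhb, with 86 bases between their annotated starts. It averaged 767 ± 164 CPM in CB-100, against 1025 ± 280.5 CPM in sham (log2 change -0.42 ± 0.27 SE, adjusted p = 0.37 by edgeR). Acaa2, the matrix thiolase, stood at 675, 353, 662 and 363 CPM in CB-100, against 594, 1213 and 1003 CPM in sham. CB-100 replicates 1 and 3 lay above sham replicate 1, and replicates 2 and 4 below all sham libraries (log2 change -0.87 ± 0.34 SE, adjusted p = 0.16 by edgeR). Echs1, the short-chain hydratase, averaged 259 ± 78.9 CPM in CB-100, against 352 ± 59.2 CPM in sham (log2 change -0.44 ± 0.26 SE), and Hadh, the hydroxyacyl-CoA dehydrogenase, averaged 527 ± 179 CPM in CB-100, against 784 ± 263 CPM in sham (log2 change -0.57 ± 0.33 SE).

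**Figure D3:**
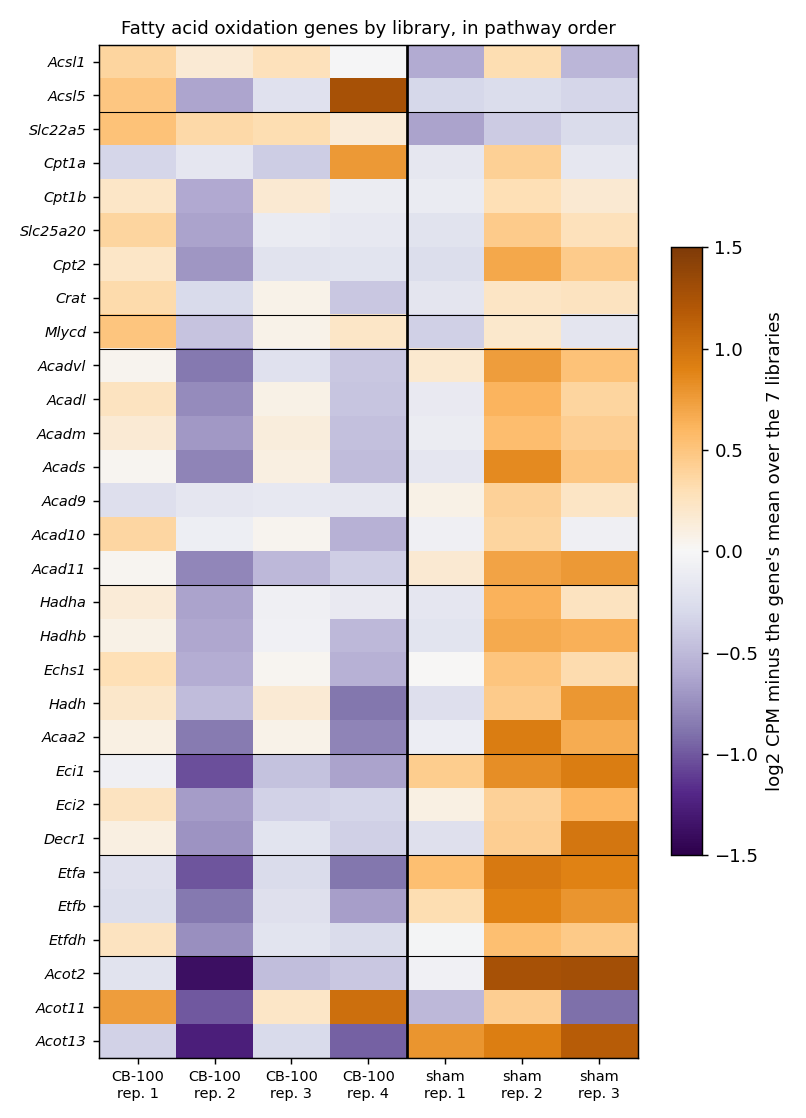
Log2 CPM of each gene minus its mean over the 7 libraries (colour scale), with genes in pathway order down the page and the 4 CB-100 libraries left of the 3 sham libraries. The median over the rows is lowest in CB-100 replicate 2 and highest in sham replicate 2.

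The median over the 30 genes of log2(CPM + 2), taken relative to the mean of each gene over the 7 libraries, was 0.18, -0.67, -0.10 and -0.39 in CB-100 replicates 1 to 4 and -0.13, 0.52 and 0.44 in sham replicates 1 to 3. CB-100 replicate 1 thus lay above sham replicate 1. The groups did not overlap for 9 of the 30 genes, against 23.3% of all genes tested, with 8 lower in CB-100 against 12.2% and 1 higher against 11.1%. Without sham replicate 1, 21 of the 30 did not overlap, against 32.4% of all genes tested between the same 6 libraries.

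The 30 genes together held 1.18%, 0.759%, 1.12% and 0.657% of all counts in CB-100 replicates 1 to 4 and 1.27%, 1.61% and 1.59% in sham replicates 1 to 3, without overlap. As a share of nuclear protein-coding counts they held 1.77% ± 0.336 in the 4 CB-100 libraries and 2.27% ± 0.451 in the 3 sham libraries (mean ± SD), and there the groups overlapped. Electron transfer genes held 0.0726% ± 0.0216 of all counts in CB-100 and 0.175% ± 0.0144 in sham. Activation genes held 0.151% ± 0.0304 in CB-100 and 0.129% ± 0.0335 in sham. In bulk tissue, fewer cells of a type and less RNA per cell cannot be told apart.

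Per kilobase of principal transcript, Hadhb had the highest level over the 7 libraries, with 408 ± 94.7 CPM per kilobase in CB-100 and 651 ± 196 in sham. Etfb came second with 309 ± 65.4 in CB-100 and 695 ± 141.0 in sham, followed by Acaa2 with 338 ± 118 in CB-100 and 618 ± 207 in sham and by Acadm with 358 ± 103 in CB-100 and 503 ± 115 in sham. The SDs of Hadhb, Etfb, Acaa2 and Acadm overlap within each group, so their order is not fixed. Acsl1 ranked 7 with 400.2 ± 46.3 in CB-100 and 301 ± 113 in sham. Cpt1a was lowest, at 4.82 and 4.83 CPM per kilobase in CB-100 and sham, against 222 and 251 for Cpt1b.

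The genes that fell were short. The 4 called decreases have the 4 shortest principal transcripts of the 30 genes, with 721 bases in Acot13, 893 in Etfb, 1137 in Eci1 and 1392 in Etfa, and the next is Acaa2 with 1516. Spearman's rho between transcript length and log2 change was 0.68 across the 30 genes and 0.54 across the 25 that did not pass. It was 0.17 across 13375 tested genes that have a principal transcript, and these genes share the same 7 libraries. Among all such genes, those under 1000 bases had a median log2 change of -0.25, with 7.61% called lower and 0 called higher of 749, and those of at least 4000 bases had 0.08, with 0.883% lower and 2.35% higher. With a correction of each library for principal transcript length and GC content, an alternative chosen after seeing the data, all 5 genes stayed called (edgeR adjusted p from 0.034 to 0.049), while the calls over all genes numbered 253 in place of 622.

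**Figure D4:**
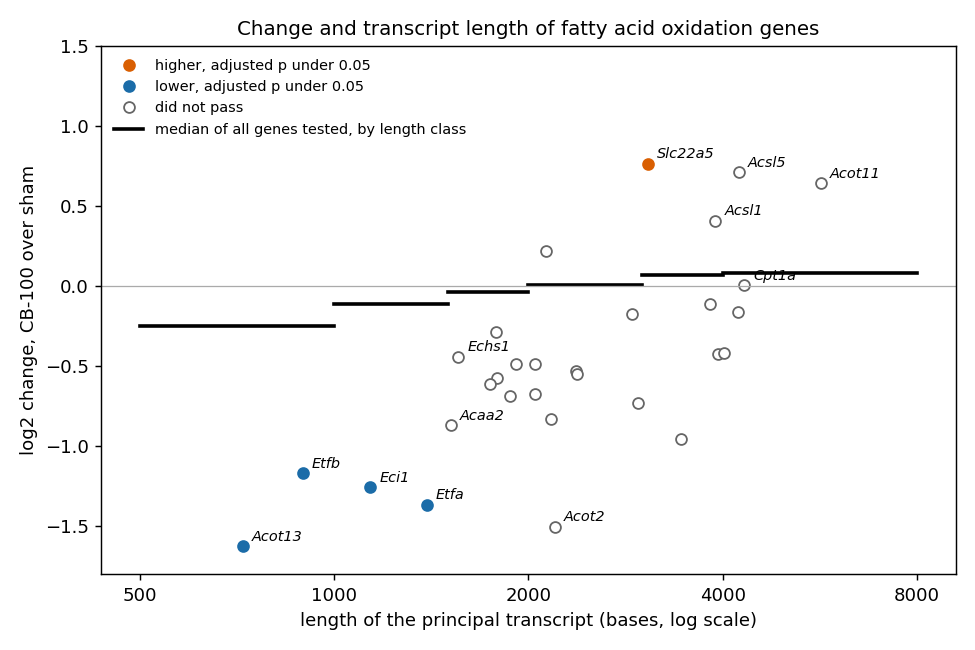
Log2 change (CB-100 over sham, vertical axis) against the length of the principal transcript in bases (horizontal log axis) for the 30 genes; black lines are medians of all tested genes in each length class. The 4 genes that fell lie at the short end, from 721 to 1392 bases, below the line of their class.

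Other genes of the pathway came from lists written with earlier results of these data known. Among 60 tested, edgeR's test gave 5 decreases and 0 increases, against 2.28% and 1.42% of all genes. At an unadjusted p of 0.05, 18 were lower and 3 higher, against 12.2% and 11.7%. DESeq2 called 14, all lower, against 6.22% of all genes lower. The median log2 change was -0.34. The lists named 63 genes, of which Acsl6 and Bdh1 did not pass the filter and Hsd17b8 was not analysed here. Etfbkmt, a methyltransferase that modifies the Etfb protein, stood at 21.7, 16.0, 13.7 and 14.8 CPM in CB-100, against 42.1, 34.7 and 40.7 CPM in sham and fell by 1.24 on the log2 scale (± 0.18 SE, adjusted p = 0.022 by edgeR). Slc25a32, a mitochondrial carrier linked to folate and to the flavin cofactor FAD, stood at 34.8, 30.8, 30.1 and 26.0 CPM in CB-100, against 138, 63.0 and 96.3 CPM in sham and fell by 1.71 (± 0.24 SE, adjusted p = 0.022 by edgeR). Of 2 more flavin-related genes in the same list, Flad1, the FAD synthase, gave -0.14 (± 0.15 SE, adjusted p = 0.60 by edgeR) and Etfrf1, a regulatory factor of the flavoprotein, -0.41 (± 0.23 SE, adjusted p = 0.31 by edgeR). The groups did not overlap in Etfbkmt or Slc25a32, and the principal transcript of Slc25a32 is 5905 bases long.

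Among the other called genes, Hsd17b10, a short-chain hydroxyacyl-CoA dehydrogenase that is also a subunit of mitochondrial RNase P, stood at 51.4, 39.3, 57.3 and 29.2 CPM in CB-100, against 196, 128 and 151 CPM in sham. It fell by 1.84 on the log2 scale (± 0.25 SE, adjusted p = 0.020 by edgeR). Acsm3, a medium-chain acyl-CoA synthetase, averaged 78.0 ± 32.9 CPM in CB-100, against 282 ± 49.3 CPM in sham and fell by 1.85 (adjusted p = 0.038 by edgeR). Its count is uncertain for non-whole values and an overlap with Eri2. In peroxisomal oxidation 1 of 14 genes fell in edgeR's test, against 2.28% of all genes, and the list had a median log2 change of -0.57. That gene was Scp2, which encodes a peroxisomal thiolase and a sterol carrier. Scp2 averaged 195 ± 30.2 CPM in CB-100, against 396 ± 23.9 CPM in sham (log2 change -1.02, adjusted p = 0.028 by edgeR, non-whole in 7 libraries). At an unadjusted p of 0.05 in edgeR, 6 of the 14 were lower and 0 higher, against 12.2% and 11.7% of all genes. DESeq2 called 6, all lower, against 6.22% of all genes lower, and limma voom 3, all lower, against 4.33%. The groups did not overlap for 4, all with CB-100 lower, against 12.2%. In the ketone body and propionyl-CoA list 0 of 8 passed edgeR's test, with a median of -0.28. At an unadjusted p of 0.05 there were 3, all lower, against 12.2% of all genes lower. DESeq2 called 2, against 11.7% of all genes in either direction. Among the 4 acyl-CoA dehydrogenases of amino acid breakdown 0 passed edgeR's test, none at an unadjusted p of 0.05 and none in DESeq2.

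Of 15 genes listed under control and transcription factors, 0 passed edgeR's test. That heading is loose, as the list also holds Angptl4, Pdk4 and Ucp3. At an unadjusted p of 0.05 there were 5, against 23.9% of all genes. DESeq2 called 2, Lpin1 and Pdk4, against 11.7%, and limma voom 1, Pdk4, against 7.21%. Ppara, the nuclear receptor that drives many of these genes in liver, averaged 237 ± 91.8 CPM in CB-100, against 254 ± 79.0 CPM in sham (log2 change -0.10 ± 0.36 SE, adjusted p = 0.89 by edgeR). Its coactivator Ppargc1a averaged 73.4 ± 31.4 CPM in CB-100, against 52.3 ± 38.6 CPM in sham (log2 change 0.49 ± 0.50 SE, adjusted p = 0.58 by edgeR). Esrra, the estrogen-related receptor alpha of mitochondrial genes, stood at 205, 119.9, 156 and 140.0 CPM in CB-100, against 82.5, 102 and 115 CPM in sham. Its groups did not overlap, with CB-100 higher (log2 change 0.63 ± 0.21 SE, adjusted p = 0.11 by edgeR). Pdk4, the kinase that holds back pyruvate oxidation, stood at 1239.6, 882, 1159.8 and 534 CPM in CB-100, against 1557, 2258 and 2645 CPM in sham, without overlap and with CB-100 lower (log2 change -1.18 ± 0.33 SE, adjusted p = 0.078 by edgeR, 0.0046 by DESeq2 and 0.043 by limma voom). Acacb, which makes the malonyl-CoA that inhibits Cpt1, averaged 1565 ± 364 CPM in CB-100, against 2253 ± 158 CPM in sham (log2 change -0.53 ± 0.26 SE, adjusted p = 0.25 by edgeR). The groups did not overlap in Acacb either, with CB-100 lower. Of the 15 genes, 3 did not overlap with CB-100 lower and 2 with CB-100 higher, against 12.2% and 11.1% of all genes. Among these, Lpin1 and Ppard were picked out after their values were seen. Lpin1, a phosphatidate phosphatase that also acts as a coactivator of Ppara, stood at 440.1, 339, 493 and 394 CPM in CB-100, against 1792, 569 and 1094 CPM in sham. Its CB-100 libraries lay close together below a wide range of sham values (log2 change -1.47 ± 0.35 SE, adjusted p = 0.054 by edgeR, 0.00092 by DESeq2 and 0.054 by limma voom). Without sham replicate 2 its edgeR adjusted p was 0.034, and without any of the other libraries in turn it lay between 0.080 and 0.16. Ppard, a nuclear receptor related to Ppara, averaged 36.1 ± 7.18 CPM in CB-100, against 27.0 ± 0.337 CPM in sham, with CB-100 higher (log2 change 0.42 ± 0.16 SE, adjusted p = 0.16 by edgeR). Ucp1 stood at 2237, 449.8, 1098 and 1824 CPM in CB-100 and 139.7, 875 and 46.1 CPM in sham. Sham replicate 2 lay above CB-100 replicate 2, and the difference of 1.99 on the log2 scale did not pass (SE 0.98, adjusted p = 0.26 by edgeR).

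Skeletal muscle, which also expresses Cpt1b and the other genes of the pathway, can adhere to this depot. With the mean log2 CPM of the 15 muscle markers as a covariate, 0 of the 30 genes passed edgeR's test (9 at an unadjusted p of 0.05), and 10 genes passed in all. The log2 changes of Etfa, Etfb, Eci1, Acot13 and Slc22a5 were then -1.25, -1.02, -1.24, -1.49 and 0.77, with edgeR adjusted p from 0.10 to 0.16. The 8 macrophage markers summed to 103 to 239 CPM in CB-100 and 115 to 178 CPM in sham. The 4 fibroblast markers summed to 715 to 1478 CPM in CB-100 and 288 to 643 CPM in sham, without overlap. Col1a1 and Col3a1 held most of this sum. Dcn went the other way without overlap, at 48.0 to 78.7 CPM in CB-100 and 94.9 to 116 CPM in sham, and Pdgfra overlapped. The 4 Schwann cell markers summed to 68.5 to 82.2 CPM in CB-100 and 47.2 to 56.4 CPM in sham, without overlap. The 5 endothelial markers summed to 593 to 1422 CPM in CB-100 and 507 to 803 CPM in sham, the 8 lymphocyte markers to 3.51 to 5.84 CPM in CB-100 and 3.43 to 7.15 CPM in sham, and the 4 white adipocyte markers in the table to 60.2 to 230.1 CPM in CB-100 and 30.8 to 133 CPM in sham. No marker of these lists was at 0 in all libraries, and none of those tested passed. The part of these cells in the results was not tested beyond the muscle covariate.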

How the data were processed

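RNA of brown fat from 7 mice was sequenced and aligned with STAR 2.7.9a against Ensembl release 101, per the labels' protocols. Without roles, the submitters' processing notes add featureCounts 2.0.3, Salmon 1.5.2, edgeR and limma. Whether counting used strand is unknown here. The file the authors deposited holds expected counts per gene without normalization, and many are not whole. Of the 30 genes, 17 had non-whole values, 13 had exons overlapped by another gene model and 12 had neither. Of 55774 lines, 287 repeated an identifier and were removed.

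Counts were rounded, filtered with filterByExpr, scaled by TMM and compared on group alone in edgeR 4.0.16 under R 4.3.3 (robust glmQLFit and glmQLFTest). Two-sided p-values were corrected by the Benjamini-Hochberg method for 16823 genes and called at 0.05. The SE is the log2 change over the square root of F. The fit was also run on counts simulated from the fitted means and dispersions, without effects of transcript length or muscle. That run does not bear on such effects in these libraries. Only animal codes in the titles show that replicates are separate mice, so p-values reflect only how these samples vary. No 2 libraries of a group matched within sampling noise (chi-square at least 32.3 times its degrees of freedom). Coordinates, transcript lengths and overlaps come from GENCODE M21 (GRCm38, 99.5% of identifiers matched) and promoters from RefSeq (GRCm38.p6, 24 of 30 genes).

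Named in full were genes past the threshold, genes whose groups did not overlap, the 4 highest per kilobase, called genes of the pathway lists and Ppara, Ppargc1a, Esrra, Pdk4, Acacb and Ucp1. Per-library values of other genes were added to complete the steps. Members, lists, tests and alternatives were chosen with earlier results of these data known. Alternatives were other scalings and filters, DESeq2 1.42.0, limma 3.58.1 (voom with sample weights), single libraries left out, mitochondrially encoded genes left out, a muscle score or sex (from Xist and Y-linked genes) as covariate, and length and GC corrections (mgcv 1.9.3).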

Additional observations from a re-analysis of the deposited data

Results flagged for a closer look

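Cpt1a in CB-100 replicate 4 stood far from the other libraries of its group, at 34.1 CPM against 15.3 to 17.8 CPM in the other 3. The gap was 0.867 of the range of the group, above Dixon's 95% critical value for 4 samples. It was the only value so marked among 31 measures tested, the 30 genes and their share of all counts, and chance marks about 1 group in 20. The sham group of 3 was not tested.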

How the results depend on the processing

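The 5 calls among the 30 genes were the same genes under DESeq2 size factors, upper quartile scaling, at least 1 CPM in 3 libraries, without mitochondrially encoded genes and with either correction for length and GC content. Without a filter there were 6 calls (Acad11 added). DESeq2 called 9, limma voom 7, edgeR with sex as covariate 2 (Acot13 and Etfa) and with the muscle score 0 (9 at an unadjusted p of 0.05). Leaving out 1 library gave 0 to 5 calls. The cause of these differences was not tested. Over all genes, 622 calls became 1968 in DESeq2, 1213 in limma voom, 914 without a filter, 10 with the muscle score, 238 with sex, 406 with the exon length and GC correction and 253 with the principal transcript length and GC correction, which also tested fewer genes, and 8 to 610 with 1 library left out. The median log2 change of the 30 genes stayed below 0 under each alternative, from -0.69 to -0.35 with 1 library left out. Of the 30 genes, those whose groups did not overlap numbered 9 to 21 with 1 library left out, against 27.2% to 33.9% of all genes, and the 21 without sham replicate 1 stand beside 32.4%. The difference in the share of all counts, CB-100 minus sham, was -0.67 to -0.47 percentage points. Of the 30 genes, Cpt1a and Acad10 changed sign in 9 and 2 of the alternatives, without passing in any. No paired analysis was possible because the animal codes in the labels are not shared between the groups. The lowest level of any of the 30 genes was 8.68 CPM (Acot13 in CB-100 replicate 2).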

Other observations

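Ratios of CPM between partners of the same step were computed for 7 pairs chosen after their values were seen, so they are given without a test. Etfa stood at 0.803, 0.925, 1.06 and 0.736 times Etfdh in CB-100 replicates 1 to 4 and at 1.66, 1.48 and 1.51 times in sham replicates 1 to 3. Eci1 stood at 1.70 to 2.02 times Eci2 in CB-100 and at 2.75 to 2.91 times in sham. Etfb stood at 0.887 to 1.24 times Etfdh in CB-100 and at 1.59 to 1.61 times in sham. For each of these pairs the groups did not overlap, CB-100 replicate 1 included. In each, the first gene has the shorter principal transcript. Lengths are 1392 bases in Etfa, 893 in Etfb and 2377 in Etfdh, and 1137 in Eci1 and 1746 in Eci2. The part of transcript length in these ratios was not tested. Etfa stood at 0.765 to 0.905 times its partner Etfb in CB-100 and at 0.917 to 1.04 times in sham. Acsl1 stood at 16.7 to 70.2 times Acsl5 in CB-100 and at 33.4 to 60.9 times in sham, with overlap. The ratio of Hadha to Hadhb, which lie head to head, was 0.927 ± 0.127 in CB-100 (SD, n = 4) and 0.783 ± 0.113 in sham (SD, n = 3), and that of Cpt1b to Cpt1a was 34.9 ± 15.9 in CB-100 and 35.5 ± 5.76 in sham, both with overlap.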
